A study of Mus musculus with 6 samples.

Results

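The MHC class II pathway genes described here are 10 genes of the 55573 listed for inguinal white adipose tissue. They were chosen by symbol in the mutant and the Wt table: the antigen-binding chains *H2-Aa*, *H2-Ab1* and *H2-Eb1*, the invariant chain *Cd74*, the transactivator *Ciita*, the peptide exchange factor genes *H2-DMa*, *H2-DMb1* and *H2-DMb2*, and *H2-Oa* and *H2-Ob*, whose products bind that factor. All 10 symbols were found, and all 10 passed the filter on low values, as did 16868 genes in all. RNA-seq was performed on inguinal fat, a subcutaneous depot, of 3 THRA K283Q/K288R mutant and 3 Wt male mice, with 1 library of total RNA per mouse. All 6 mice were of strain C57BL/6NTac, 3 months old, on a regular chow diet and untreated. The mutation is a global knock-in in which the thyroid hormone receptor alpha cannot be fully sumoylated, and the mutant mice were homozygous. The comparison asks how levels differ between mutant and Wt mice in whole tissue, in which fewer cells of a type and less RNA per cell cannot be told apart.

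MHC class II molecules are pairs of an alpha and a beta chain that present peptides from taken-up proteins to CD4+ T cells. The invariant chain Cd74 fills the groove of the new molecule and leads it to endosomes, where cathepsins trim it and H2-DM exchanges the remaining piece for a peptide. H2-O inhibits H2-DM and is known mostly from B cells, whereas dendritic cells, macrophages and B cells all carry the class II chains. Ciita is the master regulator of these genes in professional antigen-presenting cells and, after interferon gamma, in other cells. The inguinal fat pad of the mouse encloses a lymph node, a site rich in B and T cells.

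Class II promoters share a module that ends in a Y box, the inverted CCAAT motif bound by NF-Y, with an X box bound by the RFX complex before it. The promoter stretches of 5 members are shown because both the general genes and the B-cell-restricted genes carry this module. Promoters of 7 of the 10 members were found in RefSeq on GRCm38.p6, and these are 62 bases each on the strand of the gene, 5′ to 3′. Capitals mark TGATTGG at the 3′ end and, where it lies 15 to 40 bases before ATTGG, the GCAAC of the X box region.
H2-Aa: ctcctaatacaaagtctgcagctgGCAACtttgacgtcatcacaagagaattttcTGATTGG
H2-Eb1: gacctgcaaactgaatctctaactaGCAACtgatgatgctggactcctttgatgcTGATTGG
H2-DMb2: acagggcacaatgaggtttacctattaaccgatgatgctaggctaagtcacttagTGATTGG
H2-Oa: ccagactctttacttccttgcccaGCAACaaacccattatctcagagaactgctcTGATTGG
H2-Ob: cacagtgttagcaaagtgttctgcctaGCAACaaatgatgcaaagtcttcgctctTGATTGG
The stretches lie at chr17:34287867-34287928 on the minus strand for *H2-Aa* and, on the plus strand, at chr17:34305751-34305812 for *H2-Eb1*, chr17:34145102-34145163 for *H2-DMb2*, chr17:34092279-34092340 for *H2-Oa* and chr17:34238791-34238852 for *H2-Ob*. Motifs were searched on both strands of the 250 bases before the start. TGATTGG was present in 6 of the 7 members, with *H2-DMa* as the exception, and in 7.23% of 32851 promoters. Its shorter core ATTGG, which TGATTGG contains, was present in all 7 and in 33.85% of promoters. GCAAC followed by ATTGG at 15 to 40 bases was found in *H2-Aa*, *H2-Eb1*, *H2-Oa* and *H2-Ob*, and in 1.04% of promoters, and GCAAC alone in 29.9%. ATGATG, seen in the stretches of *H2-Eb1*, *H2-DMb2* and *H2-Ob* and also before *H2-DMb1*, was in 9.39% of promoters. The motifs were chosen with these promoters in view, and a match is a description of letters and not of a bound site. The B-cell-restricted *H2-Oa* and *H2-Ob* and the general chains *H2-Aa* and *H2-Eb1* thus share this arrangement of motifs, while their levels across the mice differed as described next.

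The deposited values are reads scaled to CPM with a normalization factor for each mouse, here called normalized CPM, and whole reads could be recovered from them. The 6 libraries held 19607423 to 24228381 reads on genes, so that 3 reads equal 0.126 to 0.157 normalized CPM. Mutant mouse 1 stood apart from the other 5 mice, so the genotype test of each member is given with and without it. Its 11 B cell markers other than immunoglobulin heavy chain genes (*Ms4a1*, *Pax5*, *Cd79a* and others) summed to 5.61, with 1 to 18 reads each, against 647 to 1432 in Wt mice, against 799 and 1242 in mutant mice 2 and 3. This list without *Ighm* and *Ighd* was formed after the values were seen, since *Ighm* alone had 9433 reads in that mouse. The 10 T cell markers summed to 36.1 in mutant mouse 1 and to 249 to 809 in the other 5 mice. *Thy1*, also made outside T cells, gave 24.2 of the 36.1, and *Ighm* was at 62.0% of the mean of mutant mice 2 and 3. Of 7 lymph node genes, *Glycam1*, *Madcam1*, *Chst4* and *Ltb* were lowest in mutant mouse 1, with 1 to 17 reads. *Cxcl13*, at 26.6 there, was slightly above the 25.6 of Wt mouse 1, *Ccl19* lay between 0.0936 and 0.379 in all 6 mice, and *Ccl21a* had 0 reads in all of them. The 6 adipocyte markers summed to 10596 to 18414, so adipocyte RNA was abundant in all 6 libraries. These markers do not tell the inguinal depot from other fat, and the depot was not checked. Markers of mesothelium, the lining of body cavities and their organs, differed with genotype. Past the threshold used below, 6 of 8 were higher in the mutant, where 928 of all 16868 tested genes were called higher. The 8 markers summed to 4.96 to 41.8 in Wt and 36.3 to 75.9 in mutant mice. *Krt19* (28.5) and *Krt8* (10.1), which were not called, gave most of the 41.8 of Wt mouse 1. *Upk3b*, which was called, measured 0.0838, 0 and 1.09 in Wt mice, against 27.7, 11.4 and 16.6 in mutant mice.

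All 10 members had a lower mean in the mutant, and none passed the test across all genes. Class II RNA was abundant in Wt fat, where the 10 genes together took 0.311%, 0.443% and 0.540% of the reads of Wt mice 1, 2 and 3. In the mutant they took 0.0998%, 0.291% and 0.356% in mice 1, 2 and 3. Every member was lowest of the 6 mice in mutant mouse 1, a pattern that 30% of the 16868 tested genes showed. Among the Wt mice every member was lowest in mouse 1 and highest in mouse 3, and among the mutants highest in mouse 3, so the members moved up and down together between mice of the same genotype. The summed B cell, T cell, lymph node and dendritic cell markers had the same order, so it is not particular to the members. The share of all genes with this order was not counted. Genotypes were compared by limma on log2(value + 0.5), with Benjamini-Hochberg adjustment over all 16868 genes and a false discovery rate of 0.05. On this scale the fold change of a gene with low values is understated. Limma called 8.11% of all genes in either direction and 2.61% (440 genes) as lower in the mutant, and called 0 of the 10 members. The lower calls numbered 61 to 265 when any 1 mouse was left out. At an unadjusted p under 0.05 it counted 2 members, *H2-Ab1* and *H2-Eb1*, where 24.2% of all genes lay under that value. edgeR's quasi-likelihood test, limma-voom and DESeq2 on the recovered reads also called 0 members, with 0, 0 and 5 of them at an unadjusted p under 0.05, where the shares of all genes were 22.8%, 23.0% and 23.2%. The median log2 fold change, mutant minus Wt, was -1.02 over the members and -0.05 over all genes. Without mutant mouse 1 the medians were -0.36 and -0.04, limma called 0 members, and 1.57% of all genes (265) were called lower. At an unadjusted p under 0.05 there were then again 2 members, against 19.9% of all genes.

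**Figure D1:**
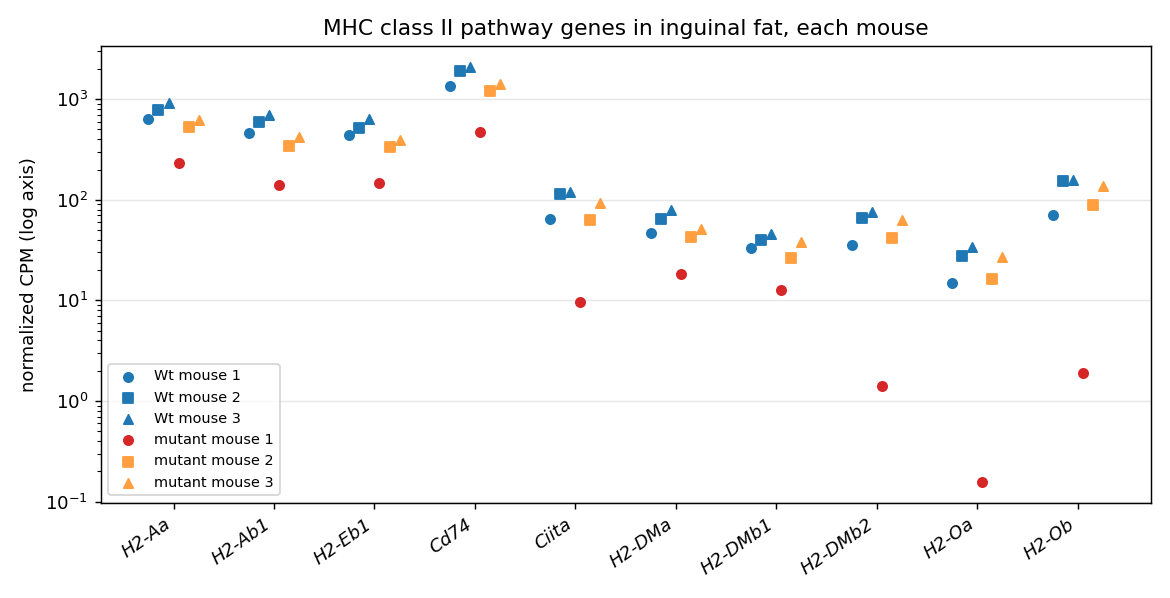
Normalized CPM (log axis) of the 10 MHC class II pathway genes in each of the 3 Wt and 3 mutant mice, 1 symbol per mouse. Mutant mouse 1 is lowest for every gene, and lies farthest below the others for *H2-DMb2* (1.41), *H2-Oa* (0.157) and *H2-Ob* (1.89).

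The antigen-binding chains were the only members in which every mutant mouse lay below every Wt mouse, which held for 3 of the 10 members and for 15.7% of all genes. *H2-Aa* (ENSMUSG00000036594, GRCm38 chromosome 17, 34282744 to 34287823, minus strand) encodes the alpha chain of the H2-A molecule. Its values were 639, 777 and 915 in Wt mice 1, 2 and 3, against 232, 525 and 615 in mutant mice 1, 2 and 3. Mutant mice 2 and 3 thus came close to Wt mouse 1 without reaching it, and mutant mouse 1 lay far lower. The means were 777 ± 138 in Wt and 457 ± 200 in the mutant (SD, n = 3), a log2 fold change of -0.87 (SE 0.37, limma adjusted p = 0.221). Without mutant mouse 1 it was -0.44 (SE 0.19, limma adjusted p = 0.281).

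*H2-Ab1* (ENSMUSG00000073421, chromosome 17, 34257689 to 34269419, plus strand) encodes the beta chain that pairs with *H2-Aa*. It measured 461, 596 and 699 in the Wt mice, against 142, 339 and 423 in the mutant mice, in the order of mouse number. The highest mutant value stayed under the lowest Wt value. Means were 585 ± 119 in Wt and 302 ± 144 in the mutant. The log2 fold change of -1.08 (SE 0.41) had a limma adjusted p of 0.173. Without mutant mouse 1 it was -0.61 (SE 0.21, limma adjusted p = 0.168). *H2-Eb1* (ENSMUSG00000060586, chromosome 17, 34305867 to 34316674, plus strand) encodes the beta chain of the H2-E molecule. C57BL/6 mice carry a defective gene for the matching alpha chain, *H2-Ea*, which had 0 reads in all 6 libraries. *H2-Eb1* itself measured 439, 523 and 640 in Wt mice, against 149, 332 and 394 in mutant mice, again without overlap of the genotypes. Means were 534 ± 101 and 291 ± 127, with a log2 fold change of -0.97 (SE 0.37, limma adjusted p = 0.173), and of -0.55 (SE 0.19, limma adjusted p = 0.169) without mutant mouse 1. With mutant mouse 1 left out, the same 3 chains had both remaining mutant mice below all Wt mice, a pattern shown by 21.6% of all genes.

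The invariant chain was the most abundant member. *Cd74* (ENSMUSG00000024610, chromosome 18, 60803848 to 60812652, plus strand) measured 1352, 1922 and 2104 in Wt mice, against 471, 1201 and 1427 in mutant mice. Mutant mouse 3 lay above Wt mouse 1, so the genotypes overlapped. The means were 1793 ± 393 and 1033 ± 500, and the log2 fold change was -0.92 (SE 0.44, limma adjusted p = 0.258), or -0.43 (SE 0.26, limma adjusted p = 0.447) without mutant mouse 1. The chains and *Cd74* kept similar proportions from mouse to mouse. The value of *Cd74* was 2.11 to 2.47 times that of *H2-Aa* in the 5 other mice and 2.03 times in mutant mouse 1. *H2-Eb1* was 0.673 to 0.699 times *H2-Aa* in the Wt mice, and 0.641, 0.631 and 0.640 times in mutant mice 1, 2 and 3. *H2-Ab1* was 0.721 to 0.767 times *H2-Aa* in the Wt mice, and 0.613, 0.646 and 0.689 times in mutant mice 1, 2 and 3. Both ratios were thus somewhat lower in every mutant mouse than in every Wt mouse, whereas that of *Cd74* overlapped. These differences were not tested.

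*Ciita* (ENSMUSG00000022504, chromosome 16, 10480059 to 10528418, plus strand) measured 64.1, 114 and 119 in Wt mice, against 9.64, 63.2 and 92.6 in mutant mice. The genotypes overlapped, and mutant mouse 1, with 184 reads, was lower relative to the other mutants than the chains were. Means were 99.3 ± 30.6 and 55.2 ± 42.1. The log2 fold change was -1.30 (SE 0.81, limma adjusted p = 0.373), and -0.32 (SE 0.30, limma adjusted p = 0.637) without mutant mouse 1. The value of *Ciita* was 0.1002 to 0.151 times that of *H2-Aa* in the 5 other mice and 0.0416 times in mutant mouse 1. The level of the transactivator was therefore further below that of the other mutants than the level of the chains was. *Ciita* shares 329 exonic bases with *Dexi* on the opposite strand, whose mean was 12.9 against 77.2 for *Ciita*, and whether reads were counted by strand is not given in the sources used here.

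The subunits of H2-DM, which loads peptides, did not behave alike. *H2-DMa* (ENSMUSG00000037649, chromosome 17, 34119541 to 34139101, plus strand), the alpha subunit, measured 46.3, 64.8 and 79.6 in Wt mice, against 18.3, 42.3 and 51.5 in mutant mice. *H2-DMb1* (ENSMUSG00000079547, chromosome 17, 34153072 to 34160230, plus strand), a beta subunit, measured 33.2, 40.1 and 46.2 in Wt mice, against 12.8, 26.4 and 37.9 in mutant mice. In both genes mutant mouse 3 lay above Wt mouse 1. *H2-DMb2* (ENSMUSG00000037548, chromosome 17, 34143307 to 34151555, plus strand), a close copy of the same beta subunit, measured 35.3, 65.2 and 74.9 in Wt mice, against 1.41, 41.4 and 62.9 in mutant mice. Mutant mouse 1 was near 0 for this gene only among the H2-DM genes, with 27 reads (95% exact Poisson interval 17.8 to 39.3, counting error only), whereas mutant mice 2 and 3 lay among the Wt mice. Reads could be split between the near-identical *H2-DMb1* and *H2-DMb2* by the counting, so their separate levels are uncertain. *H2-DMa* shares 360 exonic bases with *Brd2* on the opposite strand, whose mean of 242 exceeded the 50.4 of *H2-DMa*.

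The log2 fold change of *H2-DMa* was -0.85 (SE 0.40, limma adjusted p = 0.254), from means of 63.5 ± 16.7 and 37.3 ± 17.1, and -0.41 (SE 0.23, limma adjusted p = 0.391) without mutant mouse 1. That of *H2-DMb1* was -0.74 (SE 0.38, limma adjusted p = 0.288), from means of 39.8 ± 6.49 and 25.7 ± 12.6, and -0.32 (SE 0.20, limma adjusted p = 0.452) without it. For *H2-DMb2* it was -1.71 (SE 1.28, limma adjusted p = 0.442), from means of 58.5 ± 20.6 and 35.2 ± 31.2, and -0.13 (SE 0.34, limma adjusted p = 0.888) without mutant mouse 1. The size of the *H2-DMb2* difference thus rested on mutant mouse 1, as the change from -1.71 to -0.13 without that mouse shows. *H2-DMa* kept to 0.0724 to 0.0870 times *H2-Aa* in the 5 other mice and 0.0789 times in mutant mouse 1. *H2-DMb2* was 1.06 to 1.66 times *H2-DMb1* in the 5 other mice and 0.111 times in mutant mouse 1.

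The H2-O genes, whose protein inhibits H2-DM, were nearly lacking in mutant mouse 1 and overlapped between the genotypes in the others. *H2-Oa* (ENSMUSG00000024334, chromosome 17, 34092340 to 34095234, plus strand) measured 14.8, 27.4 and 33.6 in Wt mice, against 0.157, 16.3 and 26.8 in mutant mice. The value in mutant mouse 1 stands for 3 reads (95% exact Poisson interval 0.619 to 8.77). *H2-Ob* (ENSMUSG00000041538, chromosome 17, 34238903 to 34254414, plus strand) measured 70.1, 155 and 159 in Wt mice, against 1.89, 87.8 and 138 in mutant mice. Mutant mice 2 and 3 lay within the Wt range in both genes, and mutant mouse 1 had 36 reads on *H2-Ob* (interval 25.2 to 49.8). *H2-Oa* means were 25.3 ± 9.55 and 14.4 ± 13.4, with a log2 fold change of -1.86 (SE 1.36, limma adjusted p = 0.430). *H2-Ob* means were 128 ± 50.2 and 75.9 ± 68.8, with a log2 fold change of -1.97 (SE 1.49, limma adjusted p = 0.445). These were the largest differences among the members and also those with the largest standard errors. Without mutant mouse 1 they were -0.19 (SE 0.36, limma adjusted p = 0.834) and -0.12 (SE 0.38, limma adjusted p = 0.906). *H2-Oa* shares 321 exonic bases with *BC051537* on the opposite strand, which had a mean of 0.655.

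**Figure D2:**
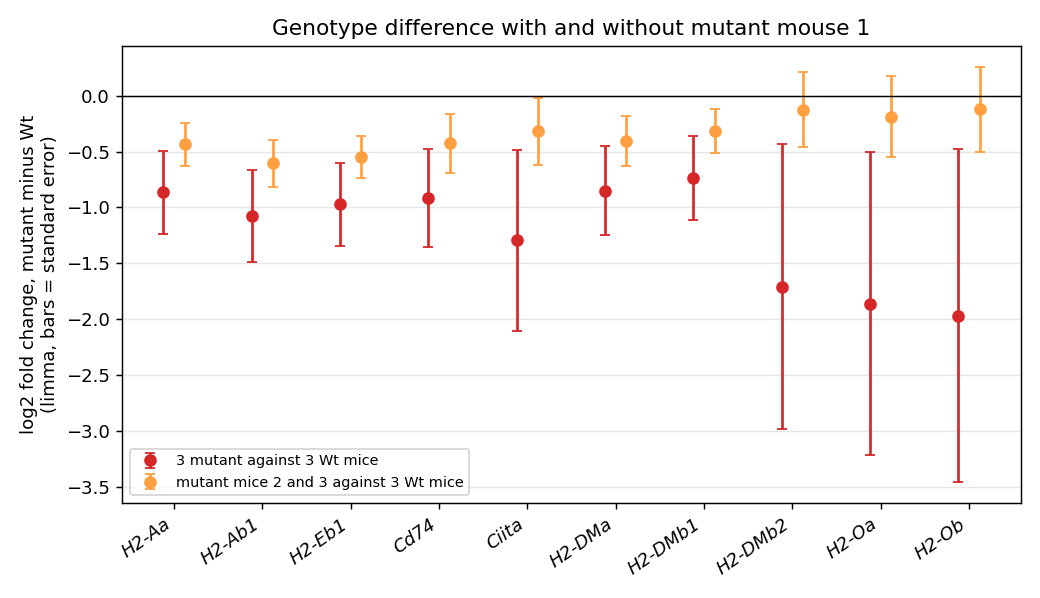
Log2 fold change of each member, mutant minus Wt, by limma with its standard error as bars, for 3 against 3 mice and for mutant mice 2 and 3 against 3 Wt mice. Without mutant mouse 1, *H2-Ab1* has the lowest value (-0.61), and *H2-DMb2*, *H2-Oa* and *H2-Ob* lie within 0.19 of 0.

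In mutant mouse 1 the members split by how much of their level remained. Set against the mean of mutant mice 2 and 3, *H2-Aa* was at 40.6% (95% counting interval 39.4 to 42.0), *H2-Ab1* at 37.2% and *H2-Eb1* at 41.0%. *Cd74* was at 35.8%, *H2-DMa* at 39.0% (34.8 to 43.8) and *H2-DMb1* at 39.8% (34.7 to 45.8). These 6 genes of the general pathway thus kept a similar share of their level. *Ciita* was lower, at 12.4% (10.7 to 14.4). The 3 lowest were *H2-DMb2* at 2.71% (1.79 to 3.98), *H2-Ob* at 1.67% and *H2-Oa* at 0.729% (0.151 to 2.15). The intervals of these genes and of the general genes do not meet. They cover counting error only, since PCR copies are not independent molecules, and 1 mouse carries no spread between animals. Compared with Wt, mutant mice 2 and 3 averaged 65.2% of the Wt mean for *H2-Ab1*, 67.9% for *H2-Eb1*, 73.4% for *H2-Aa* and 73.3% for *Cd74*. For *H2-DMb2*, *H2-Oa* and *H2-Ob* they averaged 89.1%, 85.3% and 88.2%. The genes nearest to Wt in mutant mice 2 and 3 were therefore those nearest to 0 in mutant mouse 1.

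The contrast between H2-O and the general genes was also taken within each mouse. The mean log2 level of *H2-Oa* and *H2-Ob*, less that of *H2-DMa*, *H2-DMb1* and *H2-DMb2*, was -0.22, 0.24 and 0.17 in Wt mice 1, 2 and 3. In mutant mice 1, 2 and 3 it was -2.64, 0.08 and 0.29, so mutant mice 2 and 3 lay with the Wt mice and mouse 1 did not. *H2-DMb2*, itself at 2.71% of the other mutants in mutant mouse 1, lowers the H2-DM mean of that mouse and so narrows this contrast. The genotype means differed by -0.82, less than the pooled SD of 1.17, and by 0.13 in the opposite direction without mutant mouse 1. Against the antigen-binding chains the difference was -3.94, -3.24 and -3.33 in Wt mice, against -7.09, -3.34 and -2.93 in mutant mice. Its genotype means differed by -0.94, less than the pooled SD of 1.64, and by 0.37 in the opposite direction without mutant mouse 1. With 3 mice against 3 an exact permutation test cannot give a p below 0.1, and none was run on these differences. Mutant mouse 1 had a value of *H2-Ob* 0.148 times that of *H2-DMb1*, against 2.11 to 3.86 in the 5 other mice. The H2-O genes also held a steady proportion to each other in those 5 mice, with *H2-Oa* at 0.177 to 0.212 times *H2-Ob*. In mutant mouse 1 that ratio was 0.0833, which rests on the 3 reads of *H2-Oa*.

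Levels were compared between genes per kilobase of exon. The length joins the exons of all annotated transcripts and can exceed that of the RNA made, so the order is approximate. *Cd74* was highest in Wt mice at 1068 ± 234 normalized CPM per kilobase (SD, n = 3). Its range of 805 to 1253 did not overlap that of the next gene. *H2-Eb1* at 275 ± 51.8, *H2-Ab1* at 228 ± 46.4 and *H2-Aa* at 205 ± 36.3 followed. Neighbours in this order overlapped across mice, but the order held within each Wt mouse. Of the other 6 genes, *H2-DMb2* was highest and *Ciita* lowest within each Wt mouse, and the order between them varied. These 6 formed a lower tier. It held *H2-DMb2* at 33.5 ± 11.8, *H2-Ob* at 23.8 ± 9.32 and *H2-DMb1* at 23.7 ± 3.86. *H2-DMa* at 18.4 ± 4.84, *H2-Oa* at 18.0 ± 6.79 and *Ciita* at 10.4 ± 3.21 were lower still, and each range met that of its neighbour. Per kilobase in mutant mouse 1, *Cd74* was at 281 and the chains at 55.3 to 76.4. *H2-DMb1* was at 7.61, *H2-DMa* at 5.30 and *Ciita* at 1.01. *H2-DMb2* at 0.810, *H2-Ob* at 0.351 and *H2-Oa* at 0.112 were last, so that *H2-DMb2* went from the top of the lower tier to near its end.

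The genes with the profile most like each set of members were found by the root mean square difference of centred log2(value + 0.5) over all 6 mice, mutant mouse 1 included, among all tested genes that are no members. Nearest to the mean of *H2-Aa*, *H2-Ab1*, *H2-Eb1* and *Cd74* were *Rab11fip1* (0.0622), *Sigirr* (0.0677), *Prkd2* (0.0828), *Ifi47* (0.0922) and *Sh3bgrl3* (0.0941). Of the members outside that mean, *H2-DMa* was at 0.0816 and *H2-DMb1* at 0.139, as near as those genes or almost so. *Ciita* was at 0.570, and *H2-DMb2*, *H2-Oa* and *H2-Ob* at 1.21, 1.32 and 1.502. Nearest to the mean of *H2-Oa* and *H2-Ob* were *Blk* (0.0277), a B cell kinase, *Chst3* (0.0508), *Ikzf3* (0.114), *Btla* (0.132) and *Fcrl1* (0.144). *H2-DMb2* was at 0.210 from it, *Ciita* at 0.849, and the other members at 1.37 to 1.48. Over these 6 mice *H2-DMb2* stood nearer to the H2-O genes than to the general class II genes.

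The other genes of the class II pathway gave 0 calls in either direction among the 16 tested of 17, with a median log2 fold change of -0.27, and of -0.09 without mutant mouse 1. Of these 16, 1 had an unadjusted p under 0.05 in limma, and edgeR and DESeq2 also called 0. *Rfx5*, a subunit of the RFX complex that binds the X box, had a mean of 40.1 ± 6.70 in Wt and 29.01 ± 10.8 in mutant mice, with 17.7 in mutant mouse 1 (log2 fold change -0.52, and -0.20 without that mouse). The other subunits, *Rfxap* and *Rfxank*, were not lower, with log2 fold changes of 0.13 and 0.10. In mutant mouse 1 they stood at 108% and 98.5% of the mean of mutant mice 2 and 3, against 50.9% for *Rfx5*. Cathepsin S, encoded by *Ctss*, which trims the invariant chain, had means of 156 ± 48.1 and 107 ± 46.1 (log2 fold change -0.61, limma adjusted p = 0.401, and -0.17 without mutant mouse 1). *Ifi30*, a thiol reductase of the endosome, had means of 80.6 ± 24.9 and 48.3 ± 21.7 (-0.81, limma adjusted p = 0.292, and -0.36 without mutant mouse 1). In mutant mouse 1 the proportions of *Ctss* and *Ifi30* to *H2-Aa* lay within the range of the other mice. *Ctss* was at 0.165 to 0.252 times *H2-Aa* in the 5 other mice, a 1.52-fold range, and 0.232 in mutant mouse 1. *Ctsl*, another cathepsin, went the other way, at 299 ± 14.0 in Wt and 382 ± 63.8 in mutant mice (0.34, limma adjusted p = 0.209). *Ctsb* and *Lgmn* did not drop in mutant mouse 1 and stood there at 132% and 103% of the mean of mutant mice 2 and 3. *H2-Eb2*, a little-studied beta chain gene beside *H2-Eb1*, measured 13.9, 26.02 and 22.5 in Wt mice, against 0.105, 16.1 and 23.6 in mutant mice, with 2 reads in mutant mouse 1. Its value was 0.0317 to 0.0600 times that of *H2-Eb1* in the 5 other mice and 0.000706 times in mutant mouse 1, so it did not keep its proportion to the general chain beside it.

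Genes that share an inducer with class II, and the class I pathway, showed a genotype difference that depended less on mutant mouse 1. Of 18 genes of the interferon gamma response, limma called 5 lower in the mutant and 0 higher, where 2.61% of all genes were called lower, with a median log2 fold change of -0.54. Called were *Cxcl9*, *Iigp1*, *Gbp7*, *Igtp* and *Irf1*. *Cxcl9*, a chemokine for T cells, measured 73.9, 57.5 and 62.8 in Wt and 35.1, 34.6 and 35.5 in the mutants, and its log2 fold change was -0.87 (SE 0.11, limma adjusted p = 0.00577). For *Cxcl9* the 3 mutant mice lay almost together, and mutant mouse 1 did not stand apart. Over the 18 genes that mouse was at 20.8% (*Irf8*) to 113% (*Gbp3*) of the mean of mutant mice 2 and 3. *Iigp1*, an interferon-inducible GTPase, had means of 95.2 ± 23.9 and 44.3 ± 2.91 (-1.07, SE 0.17, limma adjusted p = 0.0156). Without mutant mouse 1 there were again 5 calls, with *Gbp5* in place of *Irf1*. Leaving out mutant mouse 2 left 2 calls, *Cxcl9* and *Gbp7*, and leaving out Wt mouse 1 or Wt mouse 3 left 3, the same 2 with *Iigp1*.

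Of 10 class I pathway genes, limma called 6 lower and 0 higher, and in all 10 every mutant mouse lay below every Wt mouse. Over all genes these shares were 2.61% and 15.7%. The genes called are *H2-K1*, *H2-D1*, *Tap2*, *Tapbp*, *Psmb9* and *Psmb10*, for heavy chains, peptide transport, loading and the immunoproteasome. *H2-K1* measured 1291, 1197 and 1505 in Wt mice, against 678, 793 and 820 in mutant mice (log2 fold change -0.80, SE 0.15, limma adjusted p = 0.0289). *Tap2*, a subunit of the peptide transporter, measured 123, 128 and 145 in Wt mice, against 66.3, 78.5 and 83.6 in mutant mice (-0.79, SE 0.11, limma adjusted p = 0.0107). In both genes the mutants lay well below Wt, and mutant mouse 1 was only somewhat below the other mutants, with *H2-K1* at 84.1% of their mean against 40.6% for *H2-Aa*. Over the 10 genes this share ran from 52.3% for *Tap1*, 60.1% for *Psmb8* and 61.1% for *Psmb9* up to 108% for *B2m*. The median of the 10 genes was -0.77, and -0.66 without mutant mouse 1. The calls were sensitive to which mice were used: 4 remained without mutant mouse 1, 2 without mutant mouse 3, and 1 when mutant mouse 2 or any 1 of the Wt mice was left out.

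Lists of cell type markers moved with the members to unequal degrees, and those of macrophages and adipocytes did not move with them. The 8 dendritic cell markers summed to 94.6, 157 and 224 in Wt mice, against 58.6, 124 and 128 in mutant mice. The order of these sums among Wt mice was that of the members, but the markers did not move alike. *Ccr7* alone gave 19.4, 56.6 and 80.1 in Wt mice and 0.210 in mutant mouse 1. In that mouse *Flt3*, *Xcr1* and *Itgax* stood at 13.6%, 15.1% and 29.5% of the mean of mutant mice 2 and 3, and *Zbtb46* at 94.2%. *Cd209a* was higher in the mutant, at 21.1, 19.1 and 16.2 against 13.6, 13.7 and 13.9 in Wt mice (limma adjusted p = 0.0825). Limma and edgeR called 0 of the 8 markers, with 1 at an unadjusted p under 0.05 in each, and DESeq2 called 1 as higher. The 10 macrophage markers summed to 1538, 1588 and 1825 in Wt mice, against 1500, 1592 and 1413 in mutant mice, so this list did not drop in mutant mouse 1. Limma called 2 of them lower, where it called 2.61% of all genes lower. These were *C1qa* and *C1qc*, both subunits of a complement factor made by macrophages. Both were called too without mutant mouse 1, where 1.57% of all genes were called lower, but 0 were called without any 1 of the other 5 mice. Other markers of the list had higher means in the mutant, with log2 fold changes of 0.57 for *Cd163*, 0.34 for *Mertk* and 0.27 for *Mrc1* (limma adjusted p = 0.0686, 0.0994 and 0.221). DESeq2 called 3 macrophage markers lower and 2 higher, where it called 782 of all 16868 genes lower and 1336 higher. Limma on values scaled by library size only called 2 lower and 1 higher, where it called 265 of all genes lower and 1019 higher. The 13 B cell markers gave a median log2 fold change of -2.28, and of -0.12 without mutant mouse 1. The 10 T cell markers gave -1.75 and -0.27. Limma called 0 in both lists, with 0 B cell and 1 T cell marker at an unadjusted p under 0.05, as did edgeR, and DESeq2 called only the T cell marker *Thy1*. The 7 lymph node genes, of which 5 were tested, summed to 28.4 in mutant mouse 1 and 75.7 to 234 in the other 5 mice. Limma, edgeR and DESeq2 called 0 of these and 0 of the 6 adipocyte markers. At an unadjusted p under 0.05 they counted 0 of either list, except 1 adipocyte marker in DESeq2. The part of any of these cells in the class II levels was not tested.

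**Figure D3:**
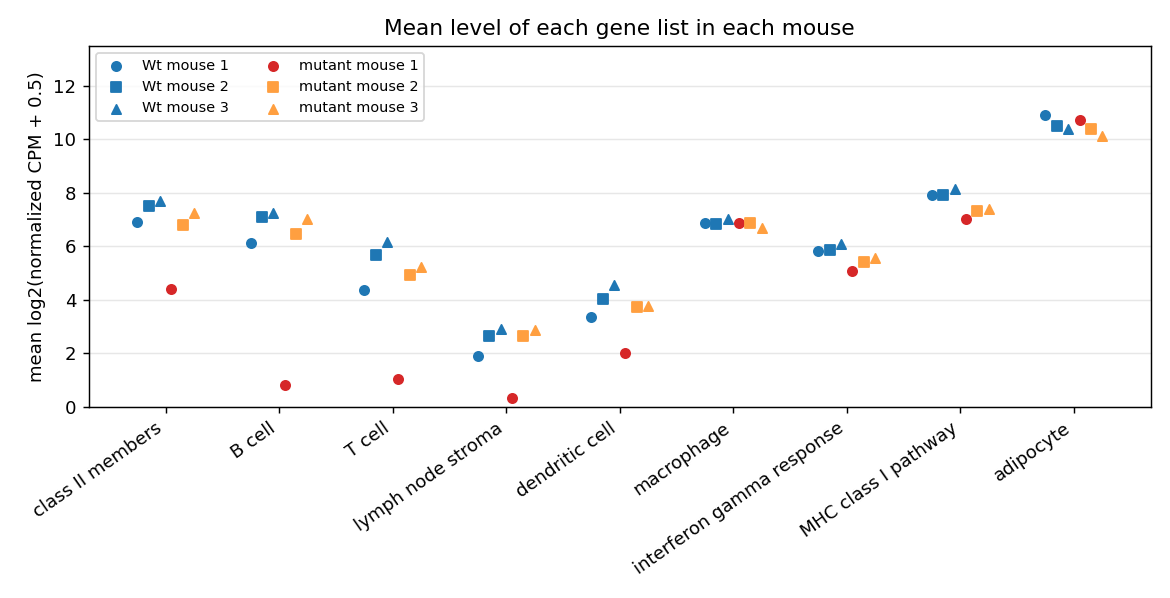
Mean log2(normalized CPM + 0.5) of the members and of each list of other genes in each mouse, 1 symbol per mouse. In mutant mouse 1 the B cell, T cell and lymph node lists lie far below the other mice and the macrophage and adipocyte lists do not, and for the class I pathway all 3 mutant mice lie below all 3 Wt mice.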

How the data were processed

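RNA-seq libraries of inguinal fat from 3 mutant and 3 Wt mice were analysed, grouped by the genotype in their labels. The authors deposited normalized CPM, a signal per gene that is scaled by a factor per mouse (0.962 to 1.109). The submitters' processing notes name mm10, Bowtie2 2.1.0, RSEM 1.2.15 and edgeR, without their roles. In each mouse 100% of values above 0 were whole multiples of 1 read within a tolerance of 0.02, which gave the reads. Each library is 1 mouse, so p-values measure the spread between animals.

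Genes were tested with limma 3.58.1 (mean-variance trend) in R 4.3.3 on log2(value + 0.5), for the 16868 genes that pass filterByExpr (edgeR 4.0.16) with the recovered reads. Alternatives were edgeR's quasi-likelihood test, DESeq2 1.42.0, limma-voom, other scalings, pseudocounts of 0.1 and 1, other filters, a replicate block and the omission of each mouse. Coordinates and exon lengths are of GENCODE M21 on GRCm38, the assembly that mm10 names. Members were matched by symbol and named in full, as were the list genes given with values and the 5 nearest profiles. Members, lists and tests were chosen with earlier results of these data known. The limma step was tested on simulated data. Figures were drawn with Matplotlib 3.10.9 in Python 3.11.15.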

Additional observations from a re-analysis of the deposited data

How the results depend on the processing

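The 10 members kept a lower mean in the mutant under every alternative run, with limma, edgeR and DESeq2 and after leaving out any mouse. Their calls changed only with a replicate block. Same-numbered mice are different animals, and their deviations from the genotype means correlated at 0.686, 0.0573 and 0.560 for numbers 1, 2 and 3. Wt mice 1 and 3 were closest to the mutant mouse of their number, though Wt mouse 3 was almost as close to mutant mouse 2 (0.536). Wt mouse 2 was closest to mutant mouse 3 (0.332). Whether mice of the same number shared any handling is not given in the sources used here. With that replicate block 5 members were called, *H2-Aa*, *H2-Ab1*, *H2-Eb1*, *Cd74* and *H2-DMa* (limma adjusted p of 0.0382, 0.0253, 0.0282, 0.0358 and 0.0239), and 4063 genes in all (1733 higher, 2330 lower) in place of 1368 (928 higher, 440 lower). Over the alternatives the adjusted p of *H2-Ab1* ranged from 0.0253 to 0.409 and that of *H2-Ob* from 0.185 to 0.906. With the block 13 of 18 interferon gamma genes were called lower in place of 5, 10 of 10 class I genes in place of 6, and 3 of the other class II genes (*Ctss*, *Ifi30* and *Nfya*) in place of 0. DESeq2 called 10 class I genes in place of 6 and 2118 genes and a filter of at least 10 reads in every mouse 598 (345 higher, 253 lower), with *H2-Oa* not tested. Scaling by library size only gave 1019 higher and 265 lower. No filter gave 1003 higher and 293 lower. Leaving out 1 mouse gave 554 to 1005 calls and 0 members in each case. The lower calls were then 175, 61 and 61 without Wt mouse 1, 2 or 3 and 265, 63 and 138 without mutant mouse 1, 2 or 3, against 493 to 740 higher calls. The contrast of H2-O with H2-DM ranged from -1.34 to 0.13 and that with the chains from -1.71 to 0.37 when 1 mouse was left out, and both changed sign without mutant mouse 1, the cause of which was not tested. Depth limits *H2-Oa*, *H2-Ob* and *H2-DMb2* in mutant mouse 1, with 3 to 36 reads.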
